A study of Mus musculus with 34 samples.

Results

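A set of 10 transcriptional regulators of cardiac fuel use were followed in the mouse LV after myocardial infarction (MI): the peroxisome proliferator-activated receptors Ppara, Ppard and Pparg, the coactivators Ppargc1a and Ppargc1b, the estrogen-related receptors Esrra, Esrrb and Esrrg, and the retinoid X receptors Rxra and Rxrg. They were taken by gene symbol, in a choice made with earlier results of these data known. All 10 are listed in both expression tables, among 14552 genes in the first and 17406 in the second. All 10 also passed the filter on low values in both tables. In the first table, LV of CFW (Swiss Webster) mice without injection was compared between 3 sham samples, 3 samples taken 4 h post-MI and 4 taken 24 h post-MI. MI was made by a permanent tie of the left anterior descending artery. By the study's methods, the tissue sequenced was a piece of the ischemic area, or of the matching area in sham hearts, and not the whole LV. The labels of the 3 sham samples read "No operation" while their titles read sham. In the second table, hearts with the same ligation received either AC modified mRNA (modRNA) or Luc modRNA, the control. A modRNA is a synthetic messenger RNA with modified nucleosides. The study's methods place such injections in the border zone right after the ligation, but they do not describe this table. The groups were AC and Luc at 4 h (n = 4 each), at 24 h (n = 3 each) and at 48 h (n = 4 each). Also taken at 4 h were 2 sham-operated hearts without injection. The labels state neither age nor sex nor what AC stands for, and they give the modRNA amount as 100 mg, which differs from the amount in the study's methods. No label names the animal behind a library, so the p-values below measure the spread between these samples.

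PPARs, ERRs and RXRs are nuclear receptors, transcription factors that sit on short DNA elements built from copies of one half-site. PPARs bind as pairs with an RXR and are switched on by fatty acids, while ERRs are orphan receptors that work without a known natural ligand and often bind alone. PGC-1 alpha and beta, the products of Ppargc1a and Ppargc1b, do not bind DNA themselves but dock on these receptors and raise transcription of their targets. In the heart, which draws most of its energy from fatty acids, PPAR alpha and its PGC-1 partners are known for the genes of fatty acid uptake and oxidation, and the ERRs with PGC-1 for those of the respiratory chain, the Krebs cycle and the handling of phosphocreatine.

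The half-site shared by these receptors was looked for in the promoters of the genes themselves, because several of the members moved together in the first table. Many of them did not do so in the second. Promoter sequences (250 bases before to 50 after each start site, RefSeq, GRCm38.p6) matched 9 of the 10 genes, with 17 start sites; Ppargc1b had no entry. The letters AGGTCA, searched on both strands, occurred in 4 of these 17 promoters, belonging to 3 genes, and in 16.3% of all 32851 promoters. The windows below run 5′ to 3′ on the strand of the gene, with the half-site in capitals.
Rxrg, chr1:167618165-167618194, plus strand, 88 bases before the start: atcggggttgaaAGGTCAgctgaaagcttc
Rxra, chr2:27709193-27709222, plus strand, 87 bases before the start, half-site on the opposite strand: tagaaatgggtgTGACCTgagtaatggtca
Rxra, chr2:27709232-27709261, plus strand, 48 bases before the same start: gggtggcaggaaAGGTCAgtcactctctgt
Pparg, chr6:115361104-115361133, plus strand, 28 bases before the start: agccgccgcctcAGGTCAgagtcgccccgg
Pparg, chr6:115362328-115362357, plus strand, 9 bases before another start: agggacgcgaggAGGTCAagaaggggcctg
The longer element bound by ERRs, TNAAGGTCA, which contains the half-site, was in none of the 17 promoters and in 1.28% of all promoters. The direct repeat bound by PPAR and RXR pairs, which is AGGTCA, any base N and AGGTCA again, was in none of the 17 and in 0.0396% of all. The palindrome bound by NRF1, which is GCGCA followed by its reverse complement, was in the promoter of Ppara and in 0.971% of all promoters, and the cyclic AMP element, which is TGAC followed by its reverse complement, was in none of the 17 and in 1.79% of all. These are matches of letters and say nothing of binding in these hearts.

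Values are CPM, the reads of a gene scaled to the size of its library. Their totals over all genes still differed between libraries of the second table. Totals were 7.31e+05 to 8.18e+05 CPM in Luc at 24 h and 5.08e+05 to 6.41e+05 CPM in Luc at 48 h. In sham they were 6.29e+05 and 6.20e+05 CPM. Reads assigned to the listed genes were estimated from the value of 1 read. They numbered 12554489 to 18954487 per library in the first table and 17091513 to 22192765 in the second. These numbers leave out reads outside the listed genes, so they are not the whole depth of a library. The lowest value of any member, 3.68 CPM for Ppargc1b at 24 h post-MI, stood for about 98 reads. The 10 cardiomyocyte markers, all detected, summed to 59639 to 64078 CPM in sham, 58460 to 63908 at 4 h and 24552 to 41284 at 24 h post-MI, while the 10 neutrophil and monocyte markers summed to 65.1 to 128 CPM in sham and 619 to 2533 at 24 h. Replicate G of 24 h post-MI stood apart at the sham end of both sums (41284 and 619 CPM). Sham replicate D of the first table held the most Rn45s, a ribosomal RNA, of that table, with 40038 CPM. The other sham libraries there held 6881 and 14567 CPM. In the second table, replicate 2 of AC at 4 h stood apart in several members, and sham replicate 1 held less of several members than sham replicate 2. The label AC was checked by Asah1, which encodes acid ceramidase and reached 5296 to 13703 CPM in AC at 4 h against 23.9 to 27.2 CPM in Luc at 4 h. Some results that rest on these libraries are given with and without them, and the others only with all libraries.

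The first comparison asked which of these regulators had changed at 24 h post-MI. In all, 8 of the 10 fell and Ppard rose, while Pparg did not pass the test (adjusted p = 0.12). Of the 12487 genes tested with limma, 66.0% passed the same threshold (adjusted p under 0.05), 30.3% as lower and 35.6% as higher. The 8 decreases ranged from 1.58-fold for Esrra to 4.95-fold for Rxrg, and the median difference in log2(CPM + 1) over the 10 genes was -1.24, beside 0.04 over all genes tested. Cardiomyocyte markers moved in the same direction: their sum was 1.91-fold (± 0.42, SD) lower at 24 h, with 5 of 10 called lower and 1 higher. The 6 fibroblast markers summed to 1.46-fold (± 0.38, SD) less, without overlap, with 4 called lower. In tissue sampled in bulk, fewer cells of a type and less RNA per cell cannot be told apart, and the part of cell makeup in these decreases was not tested.

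**Figure D1:**
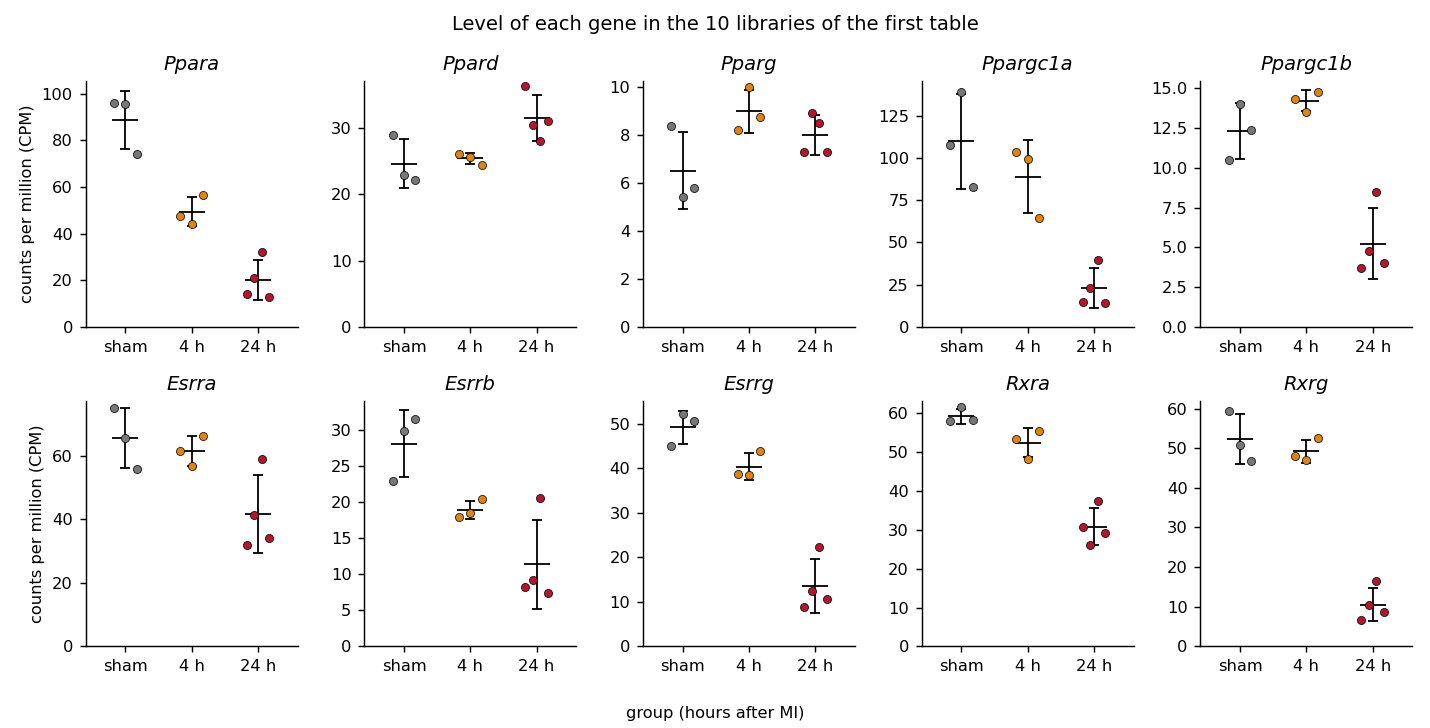
CPM of each of the 10 genes (linear axis from 0) in each library of sham, 4 h and 24 h post-MI; points are libraries, the horizontal dash is the group mean and the bar its SD (n = 3, 3 and 4). For Rxrg the 24 h libraries lie between 6.75 and 16.4 CPM, all below the 3 sham libraries, while for Pparg the groups overlap.

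Among the coactivators, Ppargc1a (chr5:51454249-51567726, minus strand, mm10), the stress-responsive PGC-1 alpha, read 107, 139 and 82.8 CPM in the 3 sham libraries. It read 103, 99.2 and 64.4 CPM at 4 h and 14.7, 23.3, 39.6 and 14.3 CPM at 24 h post-MI. All 4 libraries at 24 h were below every other library, whereas 4 h and sham overlapped. The fall at 24 h was 4.78-fold (± 2.75, SD), with a log2 difference of -2.30 (SE 0.32, adjusted p = 7.8e-05). Ppargc1b, on chromosome 18, encodes PGC-1 beta, the close relative of PGC-1 alpha. It read 10.5, 13.996 and 12.4 CPM in sham, 14.3, 13.5 and 14.8 CPM at 4 h, and 3.68, 4.79, 8.50 and 4.00 CPM at 24 h. The 24 h group was again below all others, by 2.35-fold (± 1.05, SD) against sham (log2 difference -1.14, SE 0.21, adjusted p = 0.00061).

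Of the PPARs, Ppara fell, Ppard rose and Pparg was not called. Ppara (chr15:85735564-85806852, plus strand), the main PPAR of heart muscle, read 95.9, 95.7 and 74.3 CPM in sham, 47.7, 44.2 and 56.6 CPM at 4 h, and 14.2, 21.2, 32.1 and 13.1 CPM at 24 h. No 2 of its 3 groups overlapped. At 24 h it was 4.40-fold (± 2.01, SD) lower than in sham, with a log2 difference of -2.16 (SE 0.25, adjusted p = 2.1e-05). At 4 h its mean was 1.79-fold (± 0.34, SD) below that of sham, a log2 difference of -0.83 (SE 0.27) that did not pass the threshold (adjusted p = 0.16). With replicate G of the 24 h group left out of the shared estimate of spread, it did (adjusted p = 0.023).

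Ppard (chr17:28232754-28301470, plus strand), the widely expressed PPAR delta, read 28.9, 22.8 and 22.2 CPM in sham, 26.1, 25.7 and 24.5 CPM at 4 h, and 36.3, 30.5, 28.03 and 31.0 CPM at 24 h. The 24 h group overlapped sham in 1 library on each side and was above all of the 4 h libraries. The rise over sham was 1.28-fold (± 0.24, SD; log2 difference 0.34, SE 0.12, adjusted p = 0.021), and the call was lost when 24 h replicate C, sham replicate H or sham replicate I was left out (adjusted p up to 0.094) and under a rescaling of the libraries by the median ratio. Pparg (chr6:115360951-115490402, plus strand), known as the PPAR of fat tissue, stood between 5.41 and 8.39 CPM in sham, between 8.24 and 10.0 CPM at 4 h and between 7.31 and 8.92 CPM at 24 h. Its log2 difference from sham was 0.43 (95% interval 0.08 to 0.77) at 4 h and 0.28 (interval -0.04 to 0.60) at 24 h, with adjusted p of 0.21 and 0.12. The 8 adipocyte markers summed to 15.4 to 20.5 CPM in sham and 12.5 to 26.0 CPM at 24 h.

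**Figure D2:**
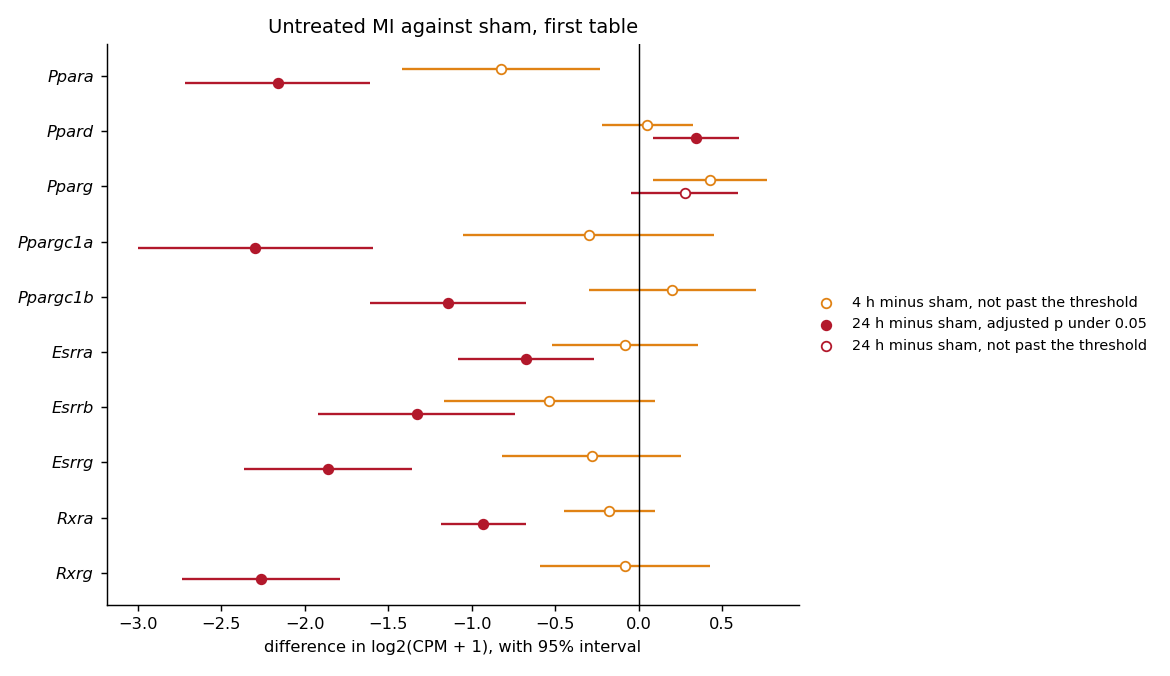
Difference in log2(CPM + 1) from sham for each of the 10 genes at 4 h and at 24 h post-MI, from limma, with 95% intervals; filled points have an adjusted p under 0.05. At 24 h, 8 genes lie left of 0, down to -2.30 for Ppargc1a, and none is past the threshold at 4 h.

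All 3 ERRs fell by 24 h, to different extents. Esrrg (chr1:187609006-188214885, plus strand), ERR gamma, the ERR known from heart and other oxidative tissues, read 45.1, 52.2 and 50.6 CPM in sham, 38.7, 38.6 and 44.0 CPM at 4 h, and 8.97, 12.4, 22.4 and 10.7 CPM at 24 h. The groups did not overlap, and the fall at 24 h was 3.62-fold (± 1.62, SD; log2 difference -1.86, SE 0.23, adjusted p = 3.1e-05). Esrrb (chr12:86361117-86521629, plus strand), ERR beta, read 22.9, 29.9 and 31.5 CPM in sham, 17.9, 18.5 and 20.4 CPM at 4 h, and 8.29, 9.26, 20.5 and 7.42 CPM at 24 h. Replicate G, at 20.5 CPM, sat above the whole 4 h group, while the other 3 libraries were below 10 CPM. The fall from sham to 24 h was 2.47-fold (± 1.39, SD; log2 difference -1.33, SE 0.27, adjusted p = 0.0011).

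Esrra (chr19:6910977-6921809, minus strand), ERR alpha, itself known as a target of PGC-1 alpha, had the smallest ratio of the ERRs. It read 75.0, 65.6 and 55.9 CPM in sham, 61.6, 56.6 and 66.3 CPM at 4 h, and 31.9, 41.5, 59.0 and 34.0 CPM at 24 h. Replicate G overlapped sham and the other 3 libraries did not. The difference of 1.58-fold (± 0.52, SD) against sham passed the threshold (log2 difference -0.67, SE 0.19, adjusted p = 0.0076), in every fit with 1 library left out as well (adjusted p up to 0.037). Esrra overlaps its neighbour Trmt112 on the opposite strand, and whether strand was used in counting is not stated, so some of its reads may be from that gene.

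Of the RXRs, the partners of the PPARs, Rxrg (chr1:167598362-167639624, plus strand), whose product is restricted to few tissues, among them muscle, read 59.4, 50.8 and 46.8 CPM in sham and 48.0, 47.1 and 52.5 CPM at 4 h. At 24 h it read 6.75, 10.4, 16.4 and 8.75 CPM, below every other library. The fall of 4.95-fold (± 2.04, SD) was the largest ratio among the 10 genes (log2 difference -2.26, SE 0.22, adjusted p = 5.1e-06). Rxra (chr2:27677201-27763320, plus strand), the broadly expressed RXR alpha, read 57.9, 61.5 and 58.3 CPM in sham, 53.5, 48.2 and 55.5 CPM at 4 h, and 30.7, 26.1, 37.5 and 29.1 CPM at 24 h. Its 3 groups did not overlap, and at 24 h it was 1.92-fold (± 0.31, SD) lower than in sham (log2 difference -0.93, SE 0.12, adjusted p = 3.5e-05).

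None of the 10 genes passed the threshold at 4 h against sham with limma, where 2.37% of all genes did; 2 had an unadjusted p under 0.05. Their median log2 difference was -0.13, beside -0.03 over all genes. At 4 h every library of Ppara, Esrrb, Esrrg and Rxra was below every sham library, 4 of 10 genes, where 18.0% of all genes had groups that did not overlap in that direction. Ppara and Esrrb passed the threshold when the 4 h and sham groups were fitted alone, and also without 24 h replicate G (adjusted p = 0.023 and 0.044). Between 4 h and 24 h post-MI, 8 genes fell and Ppard rose, where 63.9% of all genes were called, 26.7% as lower and 37.2% as higher. Rxrg fell by 4.65-fold (± 1.85, SD; adjusted p = 9.2e-06) and Esrrb by 1.66-fold (± 0.91, SD; adjusted p = 0.023). The call of Ppard in that interval (adjusted p = 0.045) was lost in most fits with 1 library left out and under both rescalings, and those of Esrrb and Esrra were lost in some of them.

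Replicate G held the highest value of the 24 h group in all 8 genes that fell. Without it, the same number of members was called at 24 h against sham, 8 lower and 1 higher, and the adjusted p of Rxrg was 8.9e-08. Leaving out each of the 10 libraries in turn gave 8 lower genes every time and 0 to 2 higher genes.

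The genes that these regulators are known to drive were then read from lists chosen with earlier results of these data known. Of 30 PPAR and PGC-1 target genes of fatty acid use, 21 fell and 4 rose at 24 h against sham (median log2 difference -0.68, beside 0.04 for all genes). Over all genes, 30.3% were lower and 35.6% higher. Without sham replicate D, 15 of the 30 fell. The 4 that rose included Angptl4, a secreted inhibitor of lipoprotein lipase that is also induced by hypoxia, from 4.41 ± 4.45 to 133 ± 32.8 CPM (SD, n = 3 and 4; adjusted p = 6.0e-06), and Plin2, a coat protein of lipid droplets, from 36.5 ± 5.75 to 209 ± 65.4 CPM (adjusted p = 4.8e-06). The deepest falls were Acsl1, the acyl-CoA synthetase that activates long-chain fatty acids, by 2.84-fold (± 1.22, SD; adjusted p = 0.00032), and Cpt1b, the muscle enzyme that passes them to mitochondria, by 2.50-fold (± 1.08, SD; adjusted p = 0.00052). At 4 h none of the 30 was called by limma.

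Of 22 ERR and PGC-1 target genes of mitochondria, 15 fell and 1 rose at 24 h (median log2 difference -0.50). Over all genes, 30.3% were lower and 35.6% higher. Without sham replicate D, 11 of the 22 fell. Perm1, a muscle protein induced by PGC-1 and ERR, fell by 3.75-fold (± 1.74, SD; adjusted p = 4.6e-05), from 369 ± 40.8 to 98.6 ± 44.4 CPM. Tfb1m, a methyltransferase of mitochondrial ribosomal RNA, fell from 6.16 ± 0.64 to 2.35 ± 0.89 CPM (adjusted p = 0.00056). Nrf1, a transcription factor of nuclear genes for mitochondria, was the 1 gene that rose, by 1.76-fold (± 0.17, SD; adjusted p = 7.6e-05).

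Among 19 coactivators, corepressors and modifiers of these receptors, 7 fell and 4 rose at 24 h against sham (median -0.19), which is 36.8% and 21.1% of the list beside 30.3% and 35.6% of all genes. Lpin1, a phosphatidate phosphatase that also acts as a nuclear partner of PGC-1 alpha and PPAR alpha, fell 5.99-fold (± 2.30, SD) at 24 h against sham (adjusted p = 1.4e-06) and stood at 151 ± 7.05 CPM (SD) at 4 h, where it was not called (adjusted p = 0.65). Prkaa2, the AMPK alpha 2 subunit that phosphorylates PGC-1 alpha, fell 2.44-fold (± 1.17, SD; adjusted p = 0.00060). Pprc1, the PGC-1-related coactivator and the third gene of the PGC-1 family, rose 3.17-fold (± 0.34, SD) from 16.4 ± 1.64 to 51.9 ± 1.96 CPM (adjusted p = 4.2e-06), while Ppargc1a and Ppargc1b fell. Sirt1, which deacetylates PGC-1 alpha, rose 1.504-fold (± 0.27, SD; adjusted p = 0.0018).

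Of 23 other nuclear receptors, 12 fell and 5 rose at 24 h (median -0.36), beside 30.3% of all genes lower and 35.6% higher. Without sham replicate H, 7 of the 23 fell. Nr3c2, the mineralocorticoid receptor, fell 5.35-fold (± 2.54, SD; adjusted p = 1.0e-05) and Nr1d2, the circadian repressor REV-ERB beta, fell 2.78-fold (± 1.14, SD; adjusted p = 0.00020). Rara, a retinoic acid receptor that also pairs with RXR, rose 4.94-fold (± 1.79, SD; adjusted p = 1.9e-05). At 4 h, 2 receptors of this list were called higher than sham by limma, beside 1.55% of all genes. They were the immediate-early Nr4a1, from 13.5 ± 11.1 to 90.2 ± 12.7 CPM (adjusted p = 0.0063), and Nr4a3 (adjusted p = 0.032). From 4 h to 24 h Nr4a1 fell (log2 difference -1.615, adjusted p = 0.0060), and at 24 h it was still above sham (adjusted p = 0.019).

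**Figure D3:**
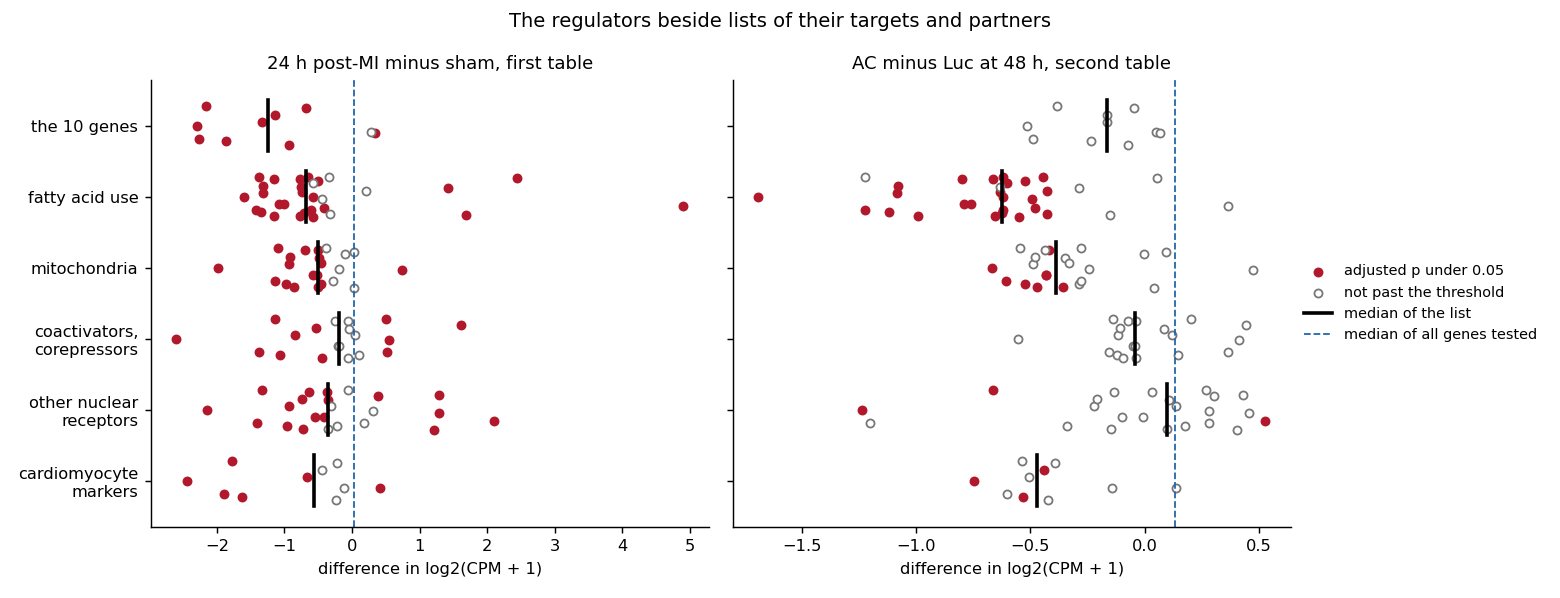
Difference in log2(CPM + 1) for the 10 genes, 4 lists of targets and partners and the cardiomyocyte markers, at 24 h post-MI against sham (left) and for AC against Luc at 48 h (right); each point is a gene, filled where the adjusted p is under 0.05, the black bar is the median of the list and the dashed line the median of all genes tested. At 24 h post-MI the median of the 10 genes is -1.24, and on the right none of the 10 is filled while 24 of 30 genes of fatty acid use are.

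The second table gave the same genes in hearts injected with Luc modRNA, read against 2 sham hearts. At 4 h none of the 10 passed the threshold with limma, where 1.55% of all genes did; 3 had an unadjusted p under 0.05. At 24 h Ppara, Ppard, Pparg and Esrra were higher than sham and Esrrg was lower, 5 of 10 genes beside 34.1% of all genes, of which 25.3% were higher and 8.79% lower. After rescaling to equal totals, the median of all genes at 24 h moved from 0.16 to -0.11, the calls from 3172 higher and 1103 lower to 1838 and 2479, and of the members Pparg stayed called as higher, Esrrg stayed called as lower and Ppargc1a was called as lower. At 48 h Ppard was higher and Esrrb and Rxrg were lower, 3 of 10 beside 30.1%, of which 13.7% were higher and 16.4% lower; under equal totals Ppard and Esrra were called higher and Rxrg lower. Time and library set cannot be told apart here: the titles of the 24 h libraries carry another naming than those of 4 h and 48 h, and the sample numbers of the sham hearts run on into those of the 4 h libraries. The 24 h libraries also differed in their makeup from the 24 h libraries of the first table. Their cardiomyocyte markers summed to 73447 to 91652 CPM in Luc, above the 65184 and 65685 CPM of sham, and their 4 atrial markers to 61.7 to 217 CPM, against 12.9 and 13.7 CPM in sham. The part of atrial tissue or of the set in the values below was not tested.

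**Figure D4:**
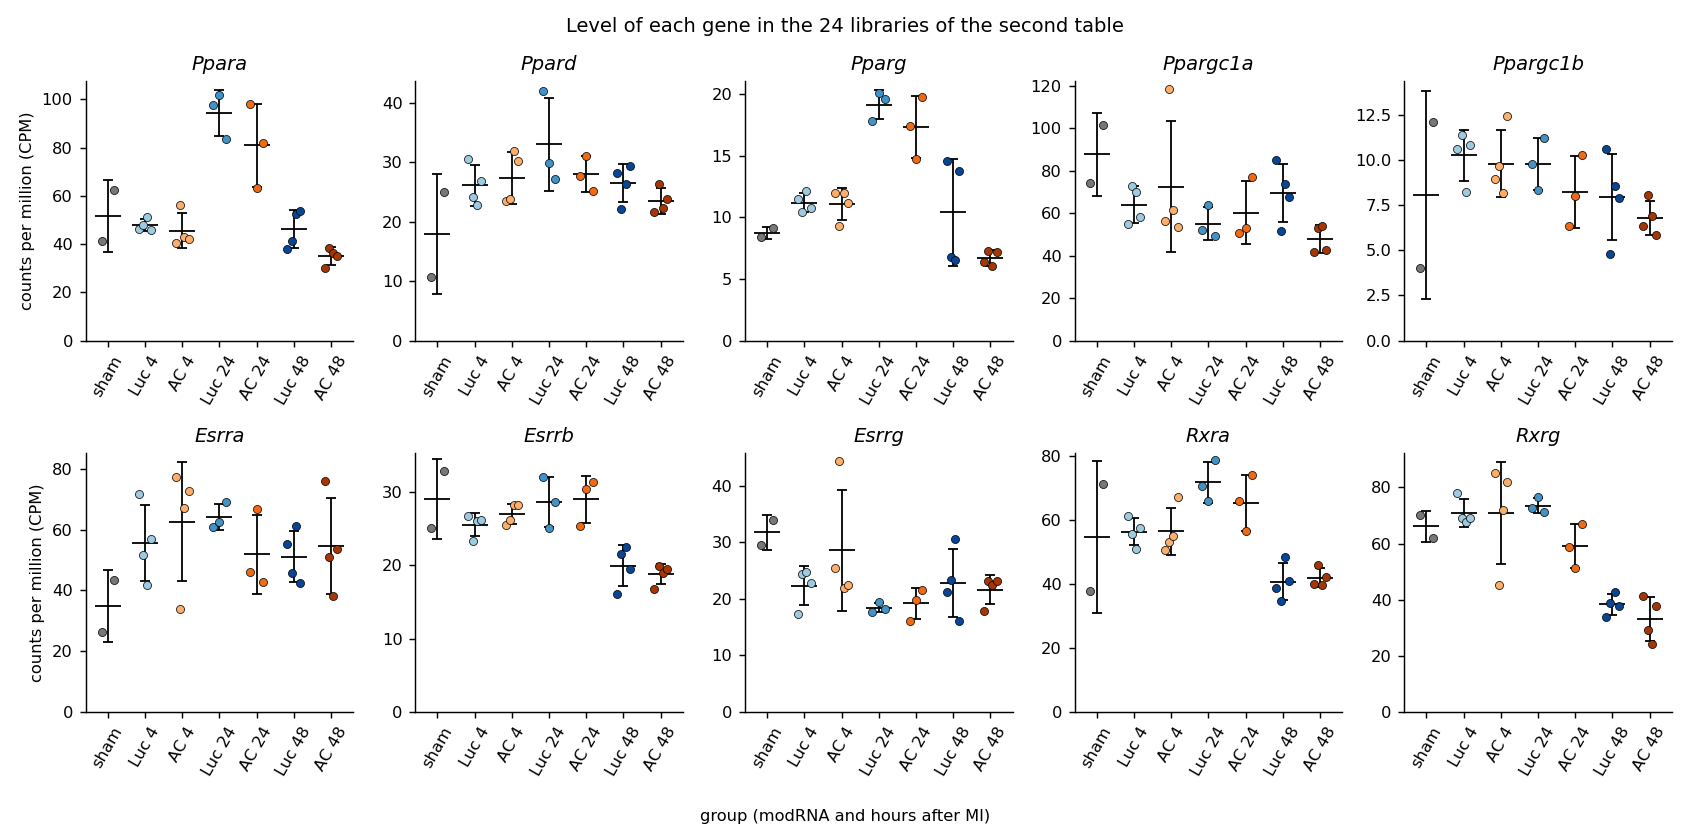
CPM of each of the 10 genes (linear axis from 0) in each library of the second table, for sham (n = 2), Luc and AC at 4 h (n = 4 each), 24 h (n = 3 each) and 48 h (n = 4 each); points are libraries, the horizontal dash is the group mean and the bar its SD. Ppara lies between 83.7 and 102 CPM in Luc at 24 h and between 38.1 and 53.6 CPM in Luc at 48 h.

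Ppara read 41.3 and 62.4 CPM in the 2 sham hearts and 46.2, 48.1, 51.1 and 45.7 CPM in Luc at 4 h. In Luc at 24 h it read 97.6, 102 and 83.7 CPM, above all libraries of sham, 4 h and 48 h, and at 48 h it was back at 38.1, 41.1, 52.3 and 53.6 CPM. The mean at 24 h was 1.98-fold (± 0.22, SD) that at 4 h (log2 difference 0.96, SE 0.17, adjusted p = 0.00021; 2 members rose, beside 32.3% of genes called, 24.5% higher and 7.80% lower) and 2.04-fold (± 0.40, SD) that at 48 h (log2 difference from 24 h to 48 h -1.02, SE 0.17, adjusted p = 9.8e-05). AC hearts read 40.7, 56.3, 43.1 and 42.1 CPM at 4 h, 97.9, 63.4 and 81.7 CPM at 24 h, and 29.99, 38.5, 36.4 and 35.1 CPM at 48 h. In AC the rise to 24 h was 1.78-fold (± 0.47, SD; adjusted p = 0.0021, beside 18.7% of genes called, 14.9% higher and 3.80% lower) and the fall to 48 h was 2.31-fold (± 0.55, SD; adjusted p = 8.4e-06). Against sham, the 1.82-fold (± 0.56, SD) higher level in Luc at 24 h was called (adjusted p = 0.0018), but not without sham replicate 1 (adjusted p = 0.097).

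Pparg also rose to 24 h and fell to 48 h. It read 8.41 and 9.11 CPM in sham, 11.5, 10.4, 12.1 and 10.8 CPM in Luc at 4 h, and 17.8, 20.1 and 19.6 CPM in Luc at 24 h. At 48 h Luc libraries were split, with 14.6 and 13.8 CPM in replicates 1 and 3 and 6.81 and 6.53 CPM in replicates 2 and 4. The 24 h group was above all others, by 2.19-fold (± 0.18, SD) over sham (log2 difference 1.05, SE 0.24, adjusted p = 0.0020) and by 1.71-fold (± 0.16, SD) over 4 h (adjusted p = 0.0082). In AC it read 17.4, 14.7 and 19.8 CPM at 24 h, called higher than at 4 h (adjusted p = 0.041, but 0.055 to 0.17 without any 1 of the 4 h AC libraries or 24 h AC replicate A or D, and 0.11 after median-ratio rescaling), and 6.36, 7.27, 6.02 and 7.16 CPM at 48 h, a fall of 2.58-fold (± 0.44, SD; adjusted p = 3.6e-05). The 8 adipocyte markers summed to 32.8 to 56.5 CPM in Luc at 24 h, against 18.2 and 18.4 CPM in sham, and the 4 of them that were tested were all called higher; their part in the level of Pparg was not tested.

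Ppard differed between the 2 sham hearts, 10.7 and 25.04 CPM, by more than the means of its Luc groups did from each other. It read 30.5, 24.2, 22.8 and 26.9 CPM in Luc at 4 h, 42.0, 29.9 and 27.3 CPM at 24 h, and 28.3, 22.2, 26.4 and 29.3 CPM at 48 h. The calls of Ppard against sham at 24 h (log2 difference 0.94, SE 0.24, adjusted p = 0.0047) and 48 h (log2 difference 0.65, SE 0.23, adjusted p = 0.035) were both lost without sham replicate 1 (adjusted p = 0.31 and 0.86), and the latter also without Luc replicate 1 or 3 (adjusted p = 0.067 and 0.075). Neither change between the time points was called for this gene in Luc or in AC.

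Rxrg and Rxra both fell between 24 h and 48 h. Rxrg read 70.1 and 62.2 CPM in sham, 78.2, 69.1, 67.5 and 69.0 CPM in Luc at 4 h, and 72.8, 76.5 and 71.4 CPM at 24 h. At 48 h it read 34.0, 39.0, 42.9 and 37.6 CPM in Luc, below every library of sham and of Luc at 4 h and 24 h. The fall from 24 h was 1.92-fold (± 0.20, SD; log2 difference -0.93, SE 0.18, adjusted p = 0.00055), and in AC, from 58.7, 51.3 and 67.1 CPM to 41.2, 29.1, 24.1 and 37.8 CPM, it was 1.79-fold (± 0.49, SD; adjusted p = 0.00091). Against sham the level in Luc at 48 h was 1.72-fold (± 0.22, SD) lower (log2 difference -0.77, SE 0.21, adjusted p = 0.0076; 0.088 without sham replicate 1). Rxra stood at 71.9 ± 6.45 CPM (SD, n = 3) in Luc at 24 h and at 40.8 ± 5.835 CPM (SD, n = 4) at 48 h, a fall of 1.76-fold (± 0.30, SD; adjusted p = 0.00066), and of its sham values 38.0 CPM lay in the range of the 48 h group and 71.5 CPM in that of the 24 h group.

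Of the ERRs, Esrrb read 25.1 and 32.8 CPM in sham, 26.7, 23.2, 26.0 and 26.1 CPM in Luc at 4 h, and 31.9, 25.1 and 28.6 CPM at 24 h. At 48 h it read 16.1, 21.6, 22.5 and 19.5 CPM, below every library of the 3 earlier groups. It was 1.45-fold (± 0.34, SD) lower than sham (log2 difference -0.52, SE 0.15, adjusted p = 0.011; 0.19 without sham replicate 2) and 1.43-fold (± 0.27, SD) lower than at 24 h (adjusted p = 0.0042). Esrrg, at 29.6 and 34.0 CPM in sham, read 17.8, 19.4 and 18.3 CPM in Luc at 24 h, a fall of 1.72-fold (± 0.19, SD; log2 difference -0.75, SE 0.25, adjusted p = 0.024) that was lost without either sham heart (adjusted p up to 0.12) and without Luc replicate A or D. Esrra read 26.5 and 43.3 CPM in sham and 61.1, 62.6 and 69.1 CPM in Luc at 24 h, and its higher level was called (log2 difference 0.90, SE 0.31, adjusted p = 0.028) but not without sham replicate 1 or Luc replicate D.

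Neither coactivator was called in the second table on the deposited scale. Ppargc1a read 74.04 and 101 CPM in sham, 54.9, 73.0, 70.1 and 58.2 CPM in Luc at 4 h, 52.0, 63.8 and 49.3 CPM at 24 h, and 84.9, 51.7, 73.8 and 67.8 CPM at 48 h. Every library of Luc at 4 h and 24 h was below both sham hearts, but the differences of -0.44 (95% interval -0.97 to 0.09) and -0.65 (interval -1.22 to -0.09) on the log2 scale had adjusted p of 0.46 and 0.065. Ppargc1b read 4.01 and 12.1 CPM in the 2 sham hearts, a range that held all libraries of the Luc groups.

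Between 24 h and 48 h, the same 5 genes, Ppara, Pparg, Esrrb, Rxra and Rxrg, were called lower in Luc and in AC, where 41.9% and 44.5% of all genes were called (9.32% higher and 32.6% lower in Luc, 19.0% and 25.5% in AC). The time contrasts of Luc and AC share no library, but they share the estimate of spread. The 24 h libraries of both also carry the naming that differs from that of 48 h. Scaling mattered here: the median log2 difference of all genes in Luc was -0.25, and -0.02 after rescaling by the median ratio or 0.18 after rescaling to equal totals. Under equal totals, Ppara, Pparg and Rxrg stayed called as lower in Luc, and Ppargc1a and Esrrg were called as higher; in AC, Ppara and Pparg stayed called as lower and Esrrg was called as higher, and the calls over all genes turned from 1170 higher and 4088 lower to 3228 and 947 in Luc. In the same interval the cardiomyocyte marker sum fell 1.70-fold (± 0.33, SD) in Luc and 2.03-fold (± 0.27, SD) in AC, and 8 and 9 of its 10 genes were called lower. Of the 30 target genes of fatty acid use, 21 fell in Luc and 26 in AC and none rose. With equal totals, 4 fell and 1 rose in Luc (median -0.16, from -0.63), and 24 fell in AC. Pdk4, a kinase that inhibits pyruvate dehydrogenase, fell from 2572 ± 425 to 587 ± 566 CPM in Luc (adjusted p = 0.00086). In AC it fell from 1763 ± 866 to 114 ± 15.1 CPM (adjusted p = 2.4e-05).

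Against sham, 8 of the 30 target genes of fatty acid use rose and none fell in Luc at 24 h, beside 25.3% of all genes higher and 8.79% lower, while 3 rose and 11 fell at 48 h, beside 13.7% and 16.4%. With equal totals, 3 rose and 5 fell at 24 h and the median turned from 0.23 to -0.08; 4 rose and 8 fell at 48 h. Without sham replicate 1, 3 rose at 24 h, and 1 rose and 5 fell at 48 h; with the groups alone 3 fell at 48 h. Angptl4 rose at each time, from 6.22 ± 4.75 CPM in sham to 23.3 ± 4.602 CPM at 4 h, 75.0 ± 22.1 CPM at 24 h and 30.4 ± 15.0 CPM at 48 h (adjusted p = 0.012, 2.7e-06 and 0.00041). Ucp2, an uncoupling protein of the inner mitochondrial membrane, rose 4.33-fold (± 2.13, SD) at 24 h (adjusted p = 4.4e-05), and Acadm, the medium-chain acyl-CoA dehydrogenase, fell 1.93-fold (± 0.32, SD) at 48 h (adjusted p = 4.8e-05). Of the 22 mitochondrial targets, 2 rose and 2 fell at 24 h (1 and 7 with equal totals), and 8 fell at 48 h (1 with the groups alone), among them Ckmt2, the mitochondrial creatine kinase, by 1.73-fold (± 0.34, SD; adjusted p = 0.00091). Pprc1 was above sham in Luc at 24 h, 3.11-fold (± 1.09, SD; adjusted p = 6.7e-06), and at 48 h, 1.69-fold (± 0.54, SD; adjusted p = 0.0058). Among the other receptors, Rara was higher in Luc at 24 h by 2.92-fold (± 1.51, SD; adjusted p = 0.00039), and Nr3c2 was 3.11-fold (± 2.37, SD) lower at 48 h (adjusted p = 0.0036).

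The last comparison asked whether AC modRNA changed the regulators at a given time. No member was called at 4 h, 24 h or 48 h, where 0.00796%, 0.00796% and 15.3% of all genes were called; the 1 gene called at 4 h and at 24 h was Asah1. The number of members with an unadjusted p under 0.05 was 0, 0 and 3. At 4 h the log2 differences of the 10 genes lay between -0.08 for Ppara and 0.29 for Esrrg, and every interval held 0. Replicate 2 of AC at 4 h stood above the other AC libraries in some members and below them in others, with 118 CPM of Ppargc1a against 53.7 to 61.4 CPM, 44.4 CPM of Esrrg against 21.9 to 25.5 CPM, 33.8 CPM of Esrra against 67.0 to 77.4 CPM and 45.1 CPM of Rxrg against 72.1 to 85.0 CPM. No member was called at 4 h without it either.

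At 24 h the log2 differences between AC and Luc ran from -0.33 for Esrra (95% interval -0.90 to 0.24) to 0.11 for Ppargc1a (interval -0.39 to 0.61). Rxrg was the member whose groups did not overlap, with 58.7, 51.3 and 67.1 CPM in AC below 72.8, 76.5 and 71.4 CPM in Luc, where 6.92% of all genes did not overlap in that direction. Its difference of -0.32 (interval -0.73 to 0.09) was not called (adjusted p = 0.99). With these intervals equal levels were not shown.

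**Figure D5:**
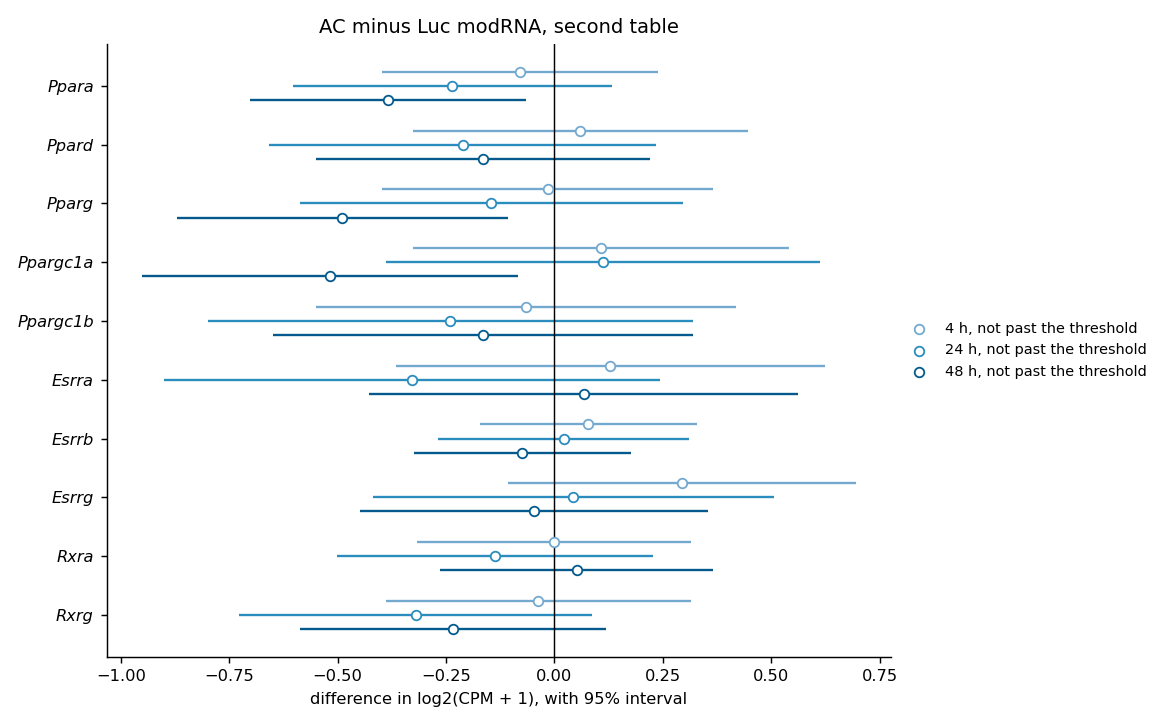
Difference in log2(CPM + 1) between AC and Luc modRNA for each of the 10 genes at 4 h, 24 h and 48 h, from limma, with 95% intervals; open points are not past the threshold. The lowest estimate is -0.52, for Ppargc1a at 48 h.

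At 48 h, 3 members had intervals that left out 0 and adjusted p above the threshold. Ppargc1a read 42.0, 53.0, 54.0 and 42.6 CPM in AC and 84.9, 51.7, 73.8 and 67.8 CPM in Luc, overlapping in Luc replicate 2. Its log2 difference was -0.52 (SE 0.21, 95% interval -0.95 to -0.08, adjusted p = 0.097), and it was called without Luc replicate 2 (adjusted p = 0.047) or without AC replicate 2 of 4 h (adjusted p = 0.032). Pparg read 6.36, 7.27, 6.02 and 7.16 CPM in AC, level with Luc replicates 2 and 4 and below replicates 1 and 3 (log2 difference -0.49, SE 0.18, interval -0.87 to -0.11, adjusted p = 0.075), and it was called without Luc replicate 2 or 4 (adjusted p = 0.023 and 0.011). Ppara was 1.32-fold (± 0.26, SD) lower in AC, a log2 difference of -0.38 (SE 0.15, interval -0.70 to -0.07, adjusted p = 0.093) in overlapping groups. Ppara and Pparg passed the threshold after rescaling by the median ratio, under which the median of all genes moved from 0.14 to 0.01 and the calls from 1516 higher and 410 lower to 844 higher and 772 lower.

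The remaining 7 members lay between -0.23 for Rxrg and 0.07 for Esrra at 48 h. Their intervals were wide: that of Esrra ran from -0.43 to 0.56, and that of Esrrg from -0.45 to 0.35. No contrast of the AC effect between 4 h and 24 h, or between 24 h and 48 h, was called for any member; the nearest was Ppargc1a from 24 h to 48 h, at -0.63 (interval -1.29 to 0.03, adjusted p = 0.33).

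While none of the 10 regulators was called at 48 h, many target genes were. Of the 30 genes of fatty acid use, 24 were lower in AC than in Luc and none was higher (median log2 difference -0.62, beside 0.14 over all genes), and of the 22 mitochondrial genes 8 were lower and none higher (median -0.39), where 3.27% of all genes were lower and 12.1% higher. With the AC and Luc groups of 48 h fitted alone, 10 and 0 were lower. With the replicate label added to that fit, 0 and 0 were lower. The 2 largest decreases of fatty acid use were Pdk4, at 94.4, 130, 120 and 111 CPM in AC and 716, 209, 91.6 and 1332 CPM in Luc replicates 1, 2, 4 and 3 (log2 difference -1.69, SE 0.54, adjusted p = 0.037), and Acot2, a mitochondrial acyl-CoA thioesterase, at 17.7 to 19.7 CPM in AC and 22.5 to 81.1 CPM in Luc (adjusted p = 0.0026). In both genes Luc replicates 1 and 3 were far above the others. Without Luc replicate 1 the number of lower genes was 13 of 30 and 1 of 22, without Luc replicate 3 it was 14 of 30 and 3 of 22, and the medians stayed at -0.53 and -0.58 for fatty acid use. Cardiomyocyte markers summed to 31527 to 38977 CPM in AC and 41933 to 57601 CPM in Luc, without overlap, with 3 of 10 called lower, and fibroblast markers to 1020 to 1448 CPM in AC and 710 to 931 CPM in Luc; their part in these differences was not tested. Among the mitochondrial genes Mb, myoglobin (log2 difference -0.67, adjusted p = 0.040), and Slc25a4, the muscle ADP/ATP carrier (-0.61, adjusted p = 0.048), had the largest decreases, and for both genes the AC and Luc groups overlapped. None of the 19 coactivators and corepressors was called at 48 h. Among the other receptors, Nr2f1 was higher, from 0.76 ± 0.34 to 1.503 ± 0.15 CPM (adjusted p = 0.041), and Nr4a3 was lower (adjusted p = 0.039).

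Ordered by their means, the groups of Ppara in the second table ran from AC at 48 h (35.0 CPM) over AC at 4 h, Luc at 48 h, Luc at 4 h and sham (51.8 CPM) to AC at 24 h (81.0 CPM) and Luc at 24 h (94.4 CPM). AC at 48 h lay apart from its neighbour, AC at 4 h, but overlapped Luc at 48 h, and sham lay apart from AC at 24 h. The 4 groups between 45.5 and 51.8 CPM each overlapped the next of them, and both 24 h groups overlapped each other. For Rxrg the order was AC at 48 h (33.1 CPM), Luc at 48 h (38.4 CPM), then, apart from them, AC at 24 h (59.0 CPM) and the other 4 groups up to Luc at 24 h (73.6 CPM), each overlapping the next. For Ppargc1a, Ppargc1b, Ppard, Esrra, Esrrg and Rxra, each of the 7 groups overlapped the next one in its order. For Pparg both 24 h groups lay apart above the rest, and AC at 48 h lay below sham but overlapped Luc at 48 h. For Esrrb both 48 h groups lay apart below the rest. In the first table, Ppara, Esrrg and Rxra had the order 24 h, 4 h, sham with no overlap between neighbours.

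For each member, the genes of most similar pattern were those with the highest lower value of 2 Pearson correlations of log2(CPM + 1), taken within each table (10 and 24 libraries), among 12259 genes. The libraries share depth and makeup, and the values are a description. For Rxrg these were Vegfb, a growth factor for vessels (r = 0.98 and 0.95), and Mrps9, a protein of the mitochondrial ribosome (0.98 and 0.95). For Rxra they were Atg9a, an autophagy protein (0.96 and 0.95), and Kif1c, a kinesin (0.95 and 0.94). Esrrg was most like Prkaa2 (0.98 and 0.92) and Nebl, the cardiac actin-binding protein nebulette (0.99 and 0.88), and Esrrb most like Kcnj11, the pore of the cardiac ATP-sensitive potassium channel (0.94 and 0.90), and R3hdm2 (0.90 and 0.90). Ppara was most like Epas1, which encodes the hypoxia-inducible factor HIF-2 alpha (0.92 and 0.92), and 5930403L14Rik (0.96 and 0.92).

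Ppargc1a was most like Jmy (0.97 and 0.86) and Cep85l (0.89 and 0.81), and Ppargc1b most like Itpkb (0.93 and 0.82) and Lrp5, a coreceptor of Wnt signals (0.89 and 0.78). Pparg was most like Fut2 (0.94 and 0.91) and Lrrc8a (0.91 and 0.90), Ppard most like Samd4b (0.84 and 0.87) and Mark2 (0.86 and 0.83), and Esrra most like Yif1b (0.85 and 0.94) and Cxx1a (0.86 and 0.84). No member was among the most similar genes of another. The closest pair of members by the same measure was Esrrb and Rxra (0.91 and 0.81), followed by Esrrb and Rxrg (0.87 and 0.75) and Ppara and Rxra (0.94 and 0.75). Other pairs were close in the first table alone, among them Esrrg and Rxrg (0.98 and -0.06) and Ppargc1a and Esrra (0.91 and -0.53).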

How the data were processed

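Poly(A) RNA of LV tissue was sequenced by the authors. Both deposited tables hold CPM values per gene symbol, one column per library. For the first table the authors aligned reads to mm10 with STAR, assigned them to RefSeq genes by the expectation-maximization counter of Partek Flow and scaled them by TMM. The study's methods do not describe the second table, for which the labels name mm10 and whose values carry an added 1 that was subtracted; strand use in counting is not given in the sources used here. Reads in the listed genes were estimated from the CPM that 1 read is worth (0.0313 to 0.0479 and 0.0241 to 0.042 CPM). Between 81.5% and 86.2% of values under 1 CPM were whole multiples of it within 0.02 reads, too few to rebuild counts.

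Groups were taken from the labels. On log2(CPM + 1), genes averaging 1 CPM or more (12487 and 12555) were tested by limma 3.58.1 in R 4.3.3 (one linear model of all groups per table, empirical Bayes with a mean-variance trend, two-sided) with Benjamini-Hochberg adjustment over all genes tested, threshold 0.05; the script was tested on simulated data. Folds are ratios of group means with propagated SD, and log2 differences of CPM + 1 understate changes of low genes. The named genes are the 10 members, the 2 genes most like each, and the 2 largest increases and decreases among called genes of each list; a few of these are also given in other comparisons, and some named by this rule are not reported here. The members and lists were chosen with earlier results of these data known. Alternatives were a pseudocount of 0.1, no filter or one at 5 CPM, the added 1 kept, 2 rescalings (median ratio, equal totals), array weights, no trend, the compared groups alone, the replicate label as a block, each library left out and, added after seeing the data, the second table without its 24 h libraries. Promoters were read from RefSeq (GRCm38.p6).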

Additional observations from a re-analysis of the deposited data

Results flagged for a closer look

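Among 50 sets of 4 libraries of a gene and group, 6 held a library whose gap to the nearest other exceeded the 95% critical value of Dixon's ratio; chance gives about 1 in 20. Of these, 3 were in replicate 2 of AC at 4 h: Ppara at 56.3 CPM beside 40.7 to 43.1 CPM, Ppargc1a at 118.5 CPM beside 53.7 to 61.4 CPM, and Esrrg at 44.4 CPM beside 21.9 to 25.5 CPM. One was Esrrb in replicate G of 24 h post-MI, at 20.5 CPM beside 7.42 to 9.26 CPM. Rxrg stood at 78.2 CPM in replicate 1 of Luc at 4 h beside 67.5 to 69.1 CPM, and Esrrg at 17.8 CPM in replicate 1 of AC at 48 h beside 22.5 to 23.1 CPM. No difference of the AC effect between time points was called for a member.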

How the results depend on the processing

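No member or named gene changed direction past the threshold. Of 4590 values of members under an alternative, 4491 kept their side of the threshold, 62 lost and 37 gained a call; of 3128 for named list genes, 265 lost it. The causes were not tested.

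At 4 h against sham, members and genes called were 3 and 2500 with array weights and 2 and 705 with the compared groups alone; without 1 library they were 0 to 2 and 105 to 560. For AC against Luc, genes called at 4 h were 4 with no filter and 6 with array weights, and at 24 h 6 with no filter and 0 with the groups alone, 1 to 3 without 1 library. At 48 h members were 1 with array weights, 2 with median-ratio rescaling and 0 to 2 without 1 library, and genes were 1182 with a filter of 5 CPM, 3178 with array weights, 1208 with the groups alone and 810 to 2896 without 1 library. For Luc against sham, genes at 4 h were 596 with the groups alone and 52 to 325 without 1 library (members 0 to 2); at 24 h members were 3 with equal totals and 1 to 6 without 1 library (genes 1682 to 4698); at 48 h members were 1 with array weights and 1 with the groups alone, and genes were 2227 and 1494, and 2150 to 4174 without 1 library. Genes called between 4 h and 24 h were 6147 in Luc and 4549 in AC with array weights, and 929 in AC with the groups alone and 1081 to 3021 without 1 library; members in AC were 1 with no filter and 1 with the groups alone. From 24 h to 48 h in AC, 3 members were called with equal totals. Scaling moved the split of calls, given as higher and lower. At 4 h post-MI against sham it went from 194 and 102 to 167 and 175 with equal totals, for Luc against sham from 157 and 37 to 128 and 55 at 4 h and from 1714 and 2060 to 2489 and 1286 at 48 h, and for AC against Luc at 48 h from 1516 and 410 to 844 and 772 with the median ratio. From 4 h to 24 h it went from 3079 and 979 to 1710 and 1834 with equal totals in Luc and from 1874 and 477 to 1084 and 1010 with the median ratio in AC, and from 24 h to 48 h in AC from 2382 and 3207 to 5235 and 1161 with equal totals. Leaving out 1 of the 2 sham hearts assumes that the other varies like the other groups.

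The deviations of same-numbered libraries from their group means correlated at -0.265 to 0.345 over genes. In no comparison of 3 or more pairs were all above 0.1, and some libraries but not all correlated best with their own number. With so few pairs, whether same-numbered libraries share more than a number cannot be told. With the replicate label as a block, genes called were 0 for AC against Luc at 24 h, 172 at 48 h (with 0 of the 30 fatty acid genes and 0 of the 22 mitochondrial genes), 414 for Luc against sham at 4 h and 995 at 48 h (members 0, and 0 lower genes in both lists).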
